A study of Mus musculus with 8 samples.

Results

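Cells of the *Hic1* lineage that held transcripts of pericyte genes were examined in 2 droplet libraries of the E16.5 mouse forelimb, 1 of a proximal and 1 of a distal segment. A cell was selected when it had at least 1 UMI (unique molecular identifier, the tag that marks 1 captured transcript) of at least 3 of 6 genes, namely *Rgs5*, *Kcnj8*, *Abcc9*, *Notch3*, *Cspg4* and *Higd1b*. It also needed at least 3000 UMIs in all, at most 10% of them from mitochondrial genes. The rule took 1075 of 19556 such filtered cells (5.5%). They were 782 of 11109 proximal cells (7.04%, exact Clopper-Pearson 95% interval 6.57 to 7.53) and 293 of 8447 distal cells (3.47%, interval 3.09 to 3.88). The intervals here and below cover counting error only. Each segment had 1 library, so no test between segments could be made. Selected and other cells could be paired in only these 2 libraries, no test between them was run, and no p-value is given.

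Both libraries held sorted tdTomato+ cells of C57BL/6J embryos labelled Hic1CreERT2/CreERT2;Rosa26LSLtdTomato/tdTomato, whose dams had received 7.5 mg of tamoxifen by gavage at E10. In these embryos Cre activity is driven from the *Hic1* locus, so tdTomato marks cells in which that locus was active around the time of tamoxifen, and their descendants. The proximal segment lay around the elbow, between the lower stylopod and the upper zeugopod, and the distal segment held the rest of the zeugopod and the autopod. Per the study's methods, pairs of forelimbs at E16.5 were split into the segments, so both libraries may hold cells of the same embryos. By the same account forelimbs of male and female embryos were pooled, and cells with surface CD45, CD117, CD31, CD11b, F4/80 or Ter119 were gated out. All E16.5 cells carried the same alleles and the same treatment, and the comparisons below are between cells of 1 library or between segments.

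The proximal library held 236408650 UMIs in 11716 barcodes and the distal library 160375326 UMIs in 9061 barcodes. Of these barcodes 32 occurred in both libraries, 2 of them in selected proximal cells and none in selected cells of both. In all, the 8 libraries of the series gave 53085 filtered cells.

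Pericytes are mural cells that share the basement membrane of capillaries with the endothelium, and vascular smooth muscle cells are the mural cells of larger vessels. Their recruitment depends on PDGF-B from endothelial cells acting on the receptor PDGFRβ, and NOTCH3 in mural cells responds to Notch ligands on neighbouring cells. Pericytes are known for an ATP-sensitive potassium channel made of the pore subunit encoded by *Kcnj8* and the sulfonylurea receptor encoded by *Abcc9*. *Rgs5* encodes a regulator that shortens signalling by G proteins, *Cspg4* encodes the NG2 proteoglycan, and *Higd1b* belongs to a family of mitochondrial inner membrane proteins.

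The selected cells are not called pericytes here but by the rule that chose them. At least 3 of 6 fibroblast markers, genes outside the rule, were present in 63.2% of proximal and 57.3% of distal selected cells. The shares in the other cells were 41.2% and 37.7%. The counts that follow are of the selection genes themselves, and a gene without a UMI may still be expressed. Of the 1075 cells, 714 (66.4%) had no UMI of *Rgs5*, and 732 (68.1%) had exactly 3 of the 6 genes. Cells with exactly 3 genes and no *Rgs5* numbered 464 proximal and 149 distal cells, 57% of all selected cells. A total of 159 cells (14.8%) had 5 or 6 of the genes, 112 in the proximal and 47 in the distal library.

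*Rgs5* was seen in 234 of 782 proximal (29.9%, interval 26.7 to 33.3) and 127 of 293 distal selected cells (43.3%, interval 37.6 to 49.2). At least 3 *Rgs5* UMIs were present in 174 proximal and 78 distal cells. The most frequent combination in the proximal library was *Kcnj8*, *Abcc9* and *Cspg4*, in 154 cells, followed by *Abcc9*, *Notch3* and *Cspg4* in 124 and *Kcnj8*, *Abcc9* and *Notch3* in 104. *Abcc9*, *Notch3* and *Cspg4* led in the distal library with 58 cells, before *Rgs5*, *Notch3* and *Cspg4* with 40. Most selected cells had thus entered through genes other than *Rgs5*, as the bar chart of cells by number of genes shows.

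**Figure D1:**
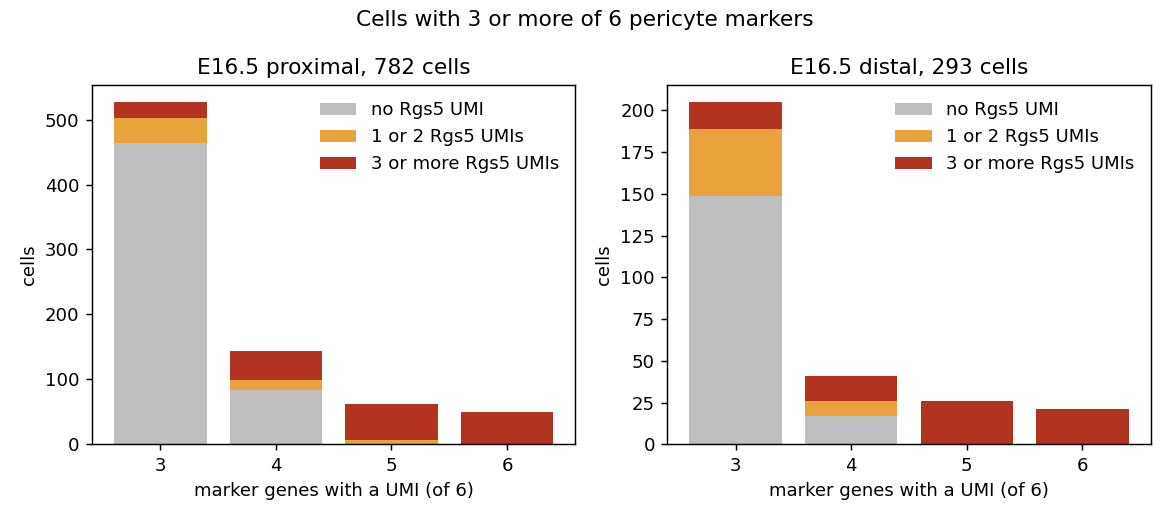
Number of selected cells (y axis) by how many of the 6 genes had a UMI (x axis), in the proximal (left) and distal (right) library, with colours for the number of *Rgs5* UMIs. Cells without *Rgs5* make up 464 of the 527 proximal and 149 of the 205 distal cells with exactly 3 genes, and 1 of the 112 proximal and none of the 47 distal cells with 5 or 6.

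The 6 genes differed in how well they set the selected cells apart. *Cspg4* had a UMI in 31.9% of the other proximal and 43.1% of the other distal cells, and *Notch3* in 20.1% and 22.8%. *Rgs5* was found in 1.54% and 3.45% of the other cells, and *Higd1b* in 0.61% and 0.0491%. As a rough reference, cells with at least 3 of 6 chondrocyte markers that the rule had not selected were counted. They had a UMI of *Rgs5* in 1.27% (interval 0.838 to 1.84) of 2127 proximal and 3.5% (2.34 to 5.01) of 801 distal cells, at median depths of 19395 and 17694 UMIs. These markers were also present in 15.7% of proximal and 7.51% of distal selected cells, and what part of the shares is free RNA was not tested. The reference and the other cells both lack cells with 3 or more of the genes, and with selected cells counted in, the reference shares of *Rgs5* were 2.44% and 3.89%. *Abcc9* was at 6.02% and 1.87% in the reference cells against 8.82% and 3.84% in the other cells, and *Notch3* at 15.7% and 18.9% against 20.1% and 22.8%. *Kcnj8* was at 4.37% and 4.62% against 8.37% and 2.4%, so it differed in opposite directions in the 2 libraries. With selected cells counted in, the reference shares were 8.13% and 6.32% for *Kcnj8*, 10% and 3.04% for *Abcc9*, and 19% and 20.8% for *Notch3*. *Cspg4*, which chondrocytes can express, was at 55.8% and 72.4% in the reference cells.

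Selection also followed depth. Selected cells had a median of 24702.5 UMIs against 18119 in the other proximal cells, and 24035 against 17087 in the distal library. When every cell was thinned to 3000 UMIs, 99 proximal (0.891%, interval 0.725 to 1.08) and 42 distal cells (0.497%, interval 0.359 to 0.672) still had 3 of the 6 genes, and 87 and 38 of these had *Rgs5*. Within the selected cells depth did not go with *Rgs5* in that direction, since cells with *Rgs5* had medians of 21511 and 23877 UMIs and cells without it 25858 and 24049.5.

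Because the selected cells differed in these ways, they were described apart by *Rgs5*, a split chosen after the data had been seen. *Rgs5*+ selected cells had at least 1 UMI of it, and *Rgs5*- selected cells had none. Values are UMIs per 1000000 UMIs (CPM) summed over the cells of a group, with exact Poisson 95% intervals where given. Groups are compared by the ratio of CPM + 1.

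Just outside and just inside the threshold of the rule, the levels differed by gene. *Acta2*, the smooth muscle actin, was at 89.4 CPM in proximal cells with 2 genes and 171 CPM in those with exactly 3, and at 16.4 and 423 CPM in the distal library. *Dcn*, the interstitial proteoglycan decorin, was at 2626 CPM with 2 genes and 2901 CPM with 3 in the proximal library, and at 2388 and 2874 CPM in the distal library. The 3-gene cells differed among themselves by *Rgs5*. Without it, *Acta2* was at 67.4 proximal and 35.1 distal CPM, and with it at 1148 and 1465 CPM. *Dcn* was at 3010 and 3298 CPM in 3-gene cells without *Rgs5* and at 1876 and 1734 CPM in those with it.

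With more genes the levels went further apart. In cells with 5 or 6 genes *Dcn* was at 324 proximal and 382 distal CPM, and *Acta2* at 1388 and 3673 CPM. *Cox4i2*, an isoform of a cytochrome c oxidase subunit known from lung, was at 4.87 and 32.5 CPM in 3-gene cells without *Rgs5*, at 21.5 and 25.2 CPM in 3-gene cells with it, and at 305 and 632 CPM in cells with 5 or 6 genes. *Pdgfrb*, the PDGF-B receptor, stood at 42.8 and 59.3 CPM in 3-gene cells without *Rgs5* and at 254 and 238 CPM in cells with 5 or 6 genes. Gene number and *Rgs5* detection both enter the rule or the split, so this order is a description. Whether it reflects a mixture of cells or a series of states was not tested.

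**Figure D2:**
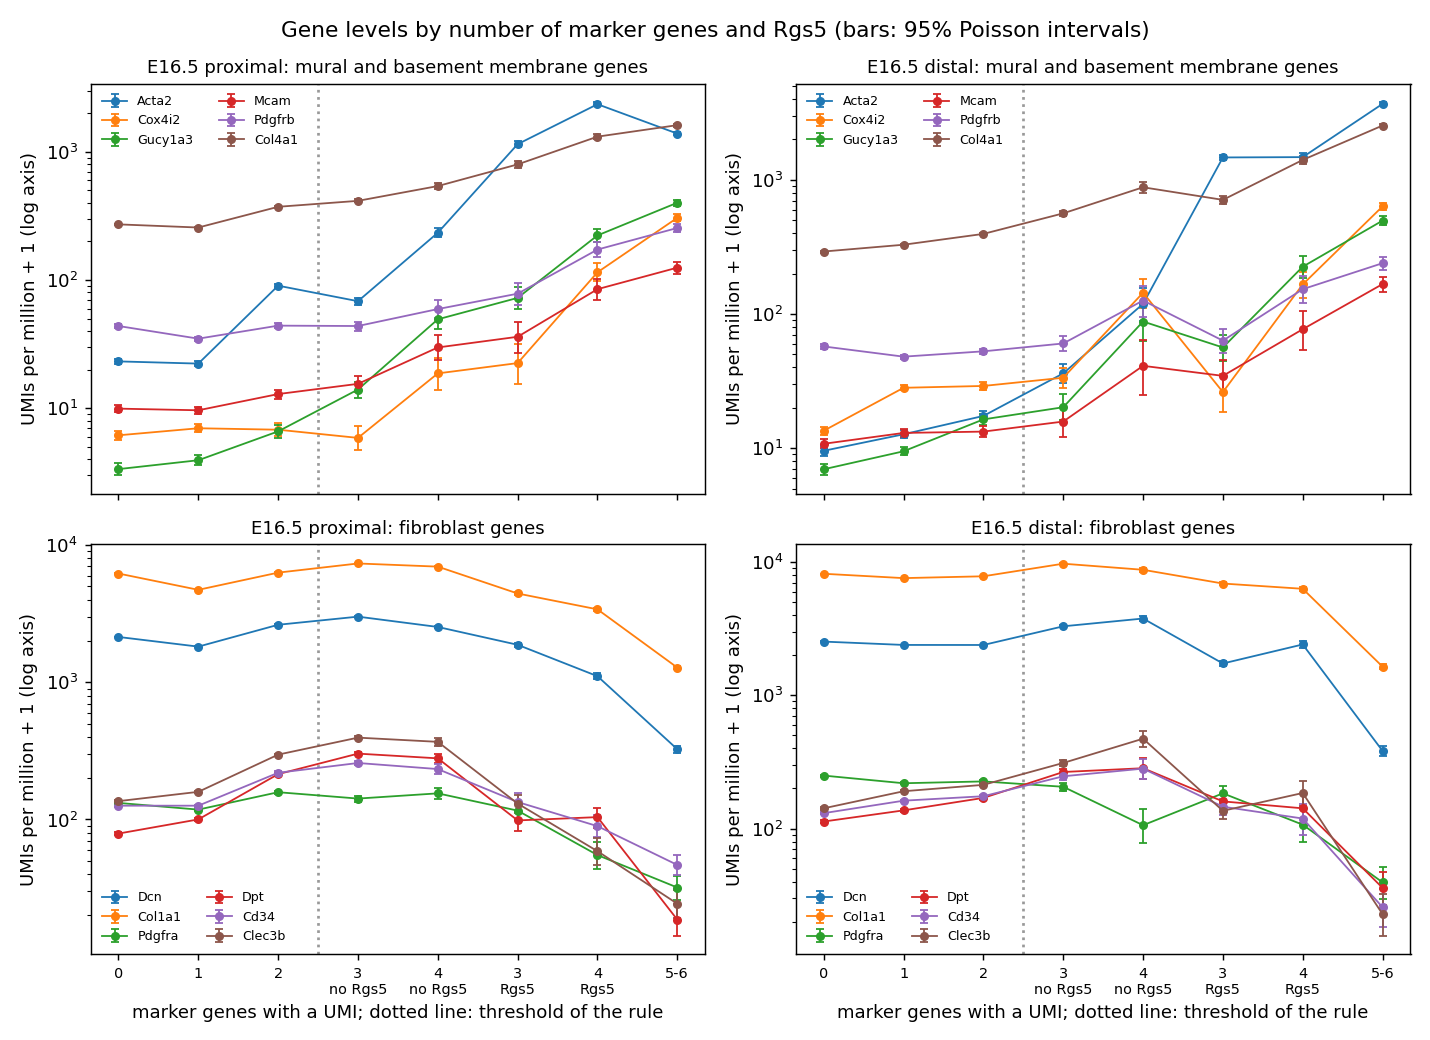
Levels in CPM + 1 (log y axis, error bars are exact Poisson 95% intervals) of 6 mural or basement membrane genes (top) and 6 fibroblast genes (bottom), by number of the 6 selection genes and *Rgs5* (x axis), in the proximal (left) and distal (right) library. Cells right of the dotted line were selected. *Dcn* falls from 3010 to 324 and from 3298 to 382 CPM between 3-gene cells without *Rgs5* and cells with 5 or 6 genes, while *Cox4i2* climbs from 4.87 to 305 and from 32.5 to 632 CPM.

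A single *Rgs5* UMI carried less weight than several. In selected cells with 1 or 2 *Rgs5* UMIs, 60 proximal and 49 distal, *Acta2* was at 181 and 114 CPM and *Dcn* at 2303 and 2230 CPM. In those with 3 or more, *Acta2* was at 2013 and 3832 CPM and *Dcn* at 395 and 655 CPM. At least 3 of 6 fibroblast markers were present in 48.3% and 69.4% of the cells with 1 or 2 *Rgs5* UMIs and in 11.5% and 12.8% of those with 3 or more.

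A gene was called when the ratio of CPM + 1 between selected and other cells was past 4-fold in the same direction in both libraries, among genes at 20 CPM or more in a group of either library. Over all selected cells 27 of 6655 genes were higher (0.406%) and 44 lower (0.661%). In *Rgs5*+ selected cells 96 of 6841 genes were higher (1.4%) and 53 lower (0.775%). In *Rgs5*- selected cells 2 of 6599 were higher (0.0303%), both of them selection genes, *Kcnj8* and *Abcc9*, and 41 lower (0.621%). The rule used this contrast, so these counts describe the cells that it took. The median ratio over all genes tested was within 0.06 of 0 on the log2 scale in each library and group.

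Among the 15 genes with the largest ratios over all selected cells were *Gm13889*, *Acta2*, *Tagln*, *Myl9* and *Des*, the soluble guanylate cyclase subunits *Gucy1a3* and *Gucy1b3*, *Cox4i2*, the chemokines *Ccl2*, *Ccl11* and *Cxcl1*, and *Rasgrp2*, *Cryab*, *Il1r1* and *Cygb*. In each of these 15 the level in *Rgs5*+ cells exceeded that in *Rgs5*- cells in both libraries. *Gm13889* was at 756 and 372 CPM in *Rgs5*+ cells, 15.3 and 7.92 CPM in *Rgs5*- cells and 7.32 and 6.98 CPM in the other cells. *Gucy1a3*, part of the enzyme that answers nitric oxide with cyclic GMP, was at 278 and 264 CPM, 19.2 and 26.3 CPM, and 3.21 and 8.95 CPM in the same order. *Rgs5*+ cells thus carried most of the signal that the pooled selected cells showed.

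The genes with the lowest ratios, among them *Krt14*, *Krt1*, *Krt10*, *Sfn*, *Lgals7* and *Stfa3*, were keratinocyte genes in both subsets. *Krt14*, a keratin of basal keratinocytes, was at 5.76 and 1.52 CPM in *Rgs5*+ cells, 18.5 and 1.4 CPM in *Rgs5*- cells, and 314 and 53.9 CPM in the other cells. All 6 epithelial markers were detected, at a sum of 230.4 and 32 CPM in *Rgs5*+ cells against 3746 and 649.6 CPM in the other cells, of which 13.6% and 2.38% had 3 or more of these markers. Without the epithelial and chondrocyte marker cells among the other cells, 5 genes in place of 44 were lower in selected cells.

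Genes of mural cells outside the rule were high in the *Rgs5*+ cells. Gene lists are counted over every listed gene in the files outside the rule, and a gene that did not reach 20 CPM could not be called. Of 27 genes from a second list of mural genes, 14 were called higher and none lower, with median log2 ratios of 2.67 in the proximal and 2.66 in the distal library. Counted the same way, 0.326% of 27930 genes were higher and 0.19% lower, so a list without a call lies near these shares. The gene lists were chosen with earlier results of these data known, so their counts describe the cells and are no independent support. A gene can reach 20 CPM through its level in *Rgs5*+ cells alone, as *Foxs1* and *Gja4* did, so 23 of the 27 could be called in *Rgs5*+ and 11 in *Rgs5*- cells. The 14 called were *Mcam*, *Cox4i2*, *Vtn*, *Foxs1*, *Heyl*, *Aoc3*, *Art3*, *Rasl12*, *Gucy1a3*, *Gucy1b3*, *Gja4*, *Rgs4*, *Itga7* and *Des*. In *Rgs5*- cells none of the 27 was called, with medians of 0.64 and 0.93. Of the 27930 genes, 0% were called higher in these cells, so the absence does not set the list apart.

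*Foxs1*, a forkhead transcription factor of mural cells, was at 36 CPM (interval 31.2 to 41.2) in proximal and 39.6 CPM (33.1 to 47.1) in distal *Rgs5*+ cells, at 2.79 and 5.59 CPM in *Rgs5*- cells and at 0.562 and 0.54 CPM in the other cells. *Gja4*, which encodes the gap junction protein connexin 37, was at 45.6 (40.2 to 51.5) and 26.8 CPM (21.5 to 33.1) in *Rgs5*+ cells and below 1 CPM in every other group. Both genes reached 20 CPM in *Rgs5*+ cells only, so their separation from *Rgs5*- and other cells describes the split. *Mcam*, the adhesion molecule CD146, was at 93.1 and 95.4 CPM in *Rgs5*+ cells, 16.9 and 17.5 CPM in *Rgs5*- cells and 9.33 and 11.3 CPM in the other cells.

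Not every gene of the list followed. *Pdgfrb* was at 192 and 149 CPM in *Rgs5*+ cells, 45.7 and 66.1 CPM in *Rgs5*- cells and 38.8 and 51.2 CPM in the other cells, which passed 4-fold in the proximal library but not in the distal one (log2 ratios 2.28 and 1.52). Among distal *Rgs5*+ cells it was at 46.1 CPM in the 45 cells without *Kcnj8* and *Abcc9* and at 239 CPM in the 53 with both, a further split by selection genes. *Tbx18*, a T-box factor of mural precursors, was at 36 and 58.2 CPM in *Rgs5*+ cells and 29.3 and 53.8 CPM in the other cells, and did not separate them. *Ndufa4l2*, a paralogue of a respiratory chain subunit, was at 466 and 465 CPM in *Rgs5*+ cells, but the other cells had 220.2 and 95.9 CPM, and the log2 ratios were 1.08 and 2.27.

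**Figure D3:**
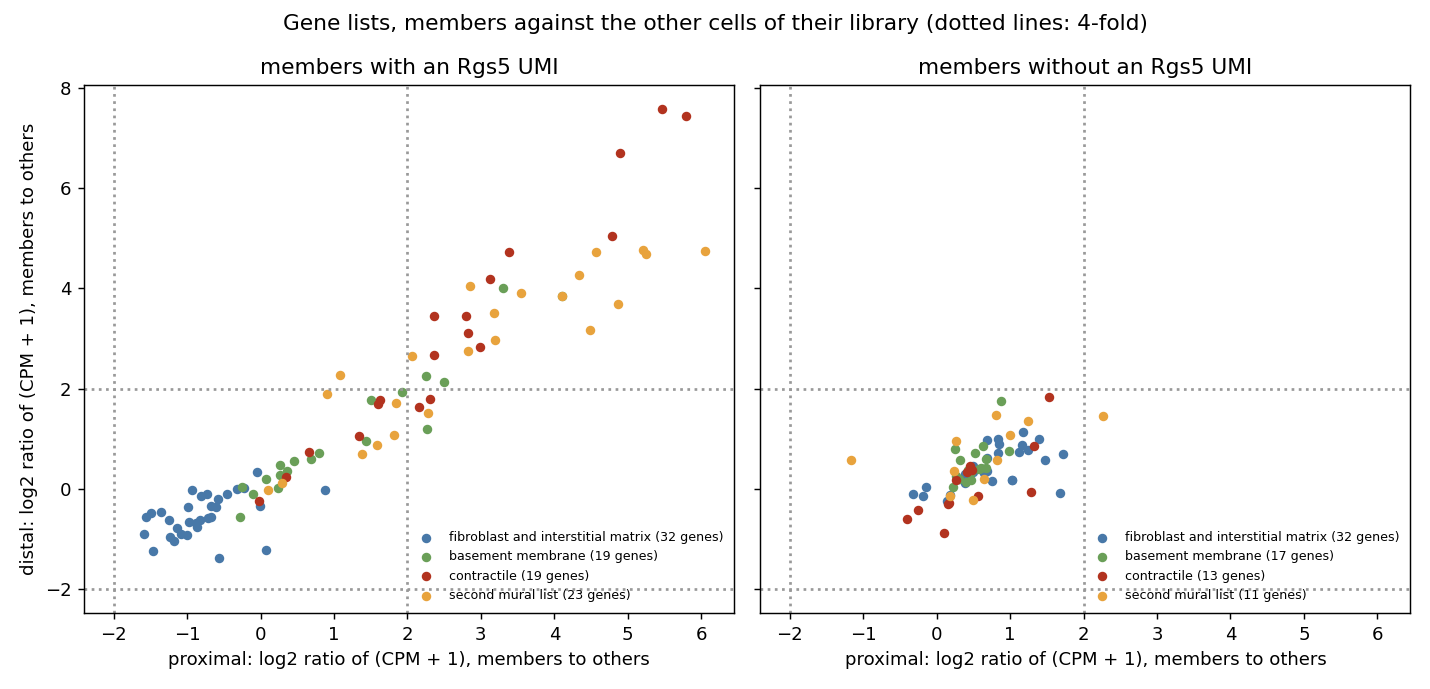
Log2 ratio of CPM + 1, selected to other cells, in the proximal (x axis) and distal (y axis) library, for genes of 4 lists in *Rgs5*+ (left) and *Rgs5*- (right) selected cells. Each point is a gene past the 20 CPM minimum and the dotted lines mark 4-fold. Contractile and second-list mural genes extend to the upper right in *Rgs5*+ cells, while in *Rgs5*- cells no gene of the 4 lists is past 4-fold in both libraries.

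The contractile genes build the actin and myosin machinery of smooth muscle. In *Rgs5*+ cells 11 of 27 were called higher, beside 0.326% of all genes, and none lower. The 27 had medians of 2.31 and 2.68, and 19 of the 27 passed the minimum. *Acta2* was at 1544 CPM (1512 to 1576) in proximal and 2393 CPM (2340 to 2447) in distal *Rgs5*+ cells, at 99.9 and 43.8 CPM in *Rgs5*- cells and at 34 and 11.5 CPM in the other cells. *Tagln*, the actin-binding protein transgelin, was at 537 and 985 CPM, 46.5 and 27.7 CPM, and 18.6 and 28.9 CPM. *Myh11*, the smooth muscle myosin heavy chain, was at 80 and 220.1 CPM in *Rgs5*+ cells and at 1.08 and 0.233 CPM in *Rgs5*- cells, close to the 0.459 and 0.277 CPM of the other cells.

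*Myl9*, a regulatory light chain of myosin, had a raised base level and a smaller ratio, with 599.7 and 689 CPM in *Rgs5*+ cells, 112 and 99.4 CPM in *Rgs5*- cells and 83.6 and 79.2 CPM in the other cells. *Cnn1*, *Lmod1*, *Mylk*, *Tpm2*, *Actg2*, *Mustn1* and *Map3k7cl* were the others called. *Smtn* was at 20.8 and 24.4 CPM in *Rgs5*+ cells and 16.2 and 20.6 CPM in the other cells, and *Tpm1*, *Cald1* and *Crip1* had log2 ratios between 1.06 and 1.77. In *Rgs5*- cells none of the 27 contractile genes was called, beside 0% of all genes called higher, with medians of 0.24 and -0.08, and 13 passed the minimum.

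Promoter windows of 250 bases before the RefSeq start of each gene (GRCm38.p6) were searched for the CArG box, the motif of serum response factor, which drives smooth muscle genes, on both strands. Only its strict form was counted, CC, then 6 bases of A or T, then GG. Forms with a changed base, such as ccctatatgg in the *Acta2* window, were not counted, so absence here means absence of the strict form. It was found in 482 of 32841 windows (1.47%), and in windows of 1.62% of all genes. Of the 22 contractile genes with a window it occurred in 2, *Myl9* and *Filip1l*, and of the 5 selection genes with a window in none. *Tagln*, *Myh11*, *Actg2* and *Map3k7cl*, all called in *Rgs5*+ cells, had no window, nor had *Myocd* and *Higd1b*. *Filip1l* was at 114 and 183 CPM in *Rgs5*+ cells, 183 and 201 CPM in *Rgs5*- cells and 72.2 and 110.3 CPM in the other cells, so the 2 genes with the motif did not share a pattern. The sequences that follow lie before the first annotated start of their gene, *Rgs5* because it splits the selected cells and *Myl9* because it is a contractile gene with the motif, set in capitals, which begins 161 bases before the RefSeq start of *Myl9*, a start that lies past the end of the printed stretch. The *Rgs5* window spans chr1:169655251-169655500 and the *Myl9* stretch chr2:156775214-156775419, both on the plus strand.
Rgs5: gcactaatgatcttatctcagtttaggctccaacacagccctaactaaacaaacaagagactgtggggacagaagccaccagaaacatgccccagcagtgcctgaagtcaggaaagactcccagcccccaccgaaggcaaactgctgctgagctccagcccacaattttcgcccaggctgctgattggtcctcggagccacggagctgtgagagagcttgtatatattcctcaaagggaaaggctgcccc
Myl9: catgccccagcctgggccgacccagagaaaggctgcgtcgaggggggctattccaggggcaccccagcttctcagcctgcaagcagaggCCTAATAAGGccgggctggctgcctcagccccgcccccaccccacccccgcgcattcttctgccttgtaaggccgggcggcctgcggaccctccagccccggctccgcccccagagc

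Contractile transcripts were unevenly spread among the *Rgs5*+ cells. Per 10000 UMIs of a cell, *Acta2* had a median of 2.39, a 90th percentile of 50.6 and a highest value of 279 in proximal *Rgs5*+ cells, and of 1.58, 78.9 and 305 in distal ones. At least 3 of 6 contractile markers were present in 60 of 234 proximal (25.6%, interval 20.2 to 31.7) and 38 of 127 distal *Rgs5*+ cells (29.9%, 22.1 to 38.7), against 3.28% and 1.81% of *Rgs5*- cells and 0.513% and 0.307% of the other cells.

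*Rgs5*+ cells with and without these markers were set side by side, a second split made after the data had been seen. *Myh11* was at 277 and 668 CPM with 3 or more contractile markers and at 3.64 and 0.909 CPM with fewer, and *Acta2* at 4337 and 6721 CPM against 459 and 272 CPM. The split itself used these genes. Among genes it did not use, *Pdgfrb* was at 174 and 174 CPM with the markers and at 199 and 137 CPM without them. *Heyl* was at 83.7 and 71.4 CPM against 74.4 and 38.2 CPM. *Notch3*, *Kcnj8* and *Abcc9* are selection genes, so their levels here depend in part on the rule. *Notch3* was at 219 and 268 CPM against 95.8 and 109 CPM. *Kcnj8* lay the other way in the proximal library, at 171 CPM (151 to 192) with the markers and 245 CPM (231 to 261) without, while the distal values of 107 and 109.9 CPM overlapped within counting error. *Abcc9* changed direction between the libraries, at 143 CPM with the markers against 199 CPM without in the proximal and 205 against 119 CPM in the distal library. *Cox4i2* did so too, at 154 against 207 CPM and 448 against 228 CPM. *Dcn* was lower with the markers in both libraries, at 521 and 597 CPM against 1025 and 1591 CPM, as was *Pdgfra*, at 40 and 51.9 CPM against 63.3 and 140.4 CPM. *Col1a1*, a collagen I chain gene, was higher with them in the proximal library, at 2890 against 2384 CPM, and lower in the distal one, at 2326 against 5731 CPM. These 3 genes also differed by selection genes. In distal *Rgs5*+ cells without *Kcnj8* and *Abcc9* *Dcn* was at 1595, *Pdgfra* at 199.7 and *Col1a1* at 6889 CPM. In those with both they were at 659, 45.2 and 2039 CPM. Whether such cells account for the differences by contractile markers was not tested.

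**Figure D4:**
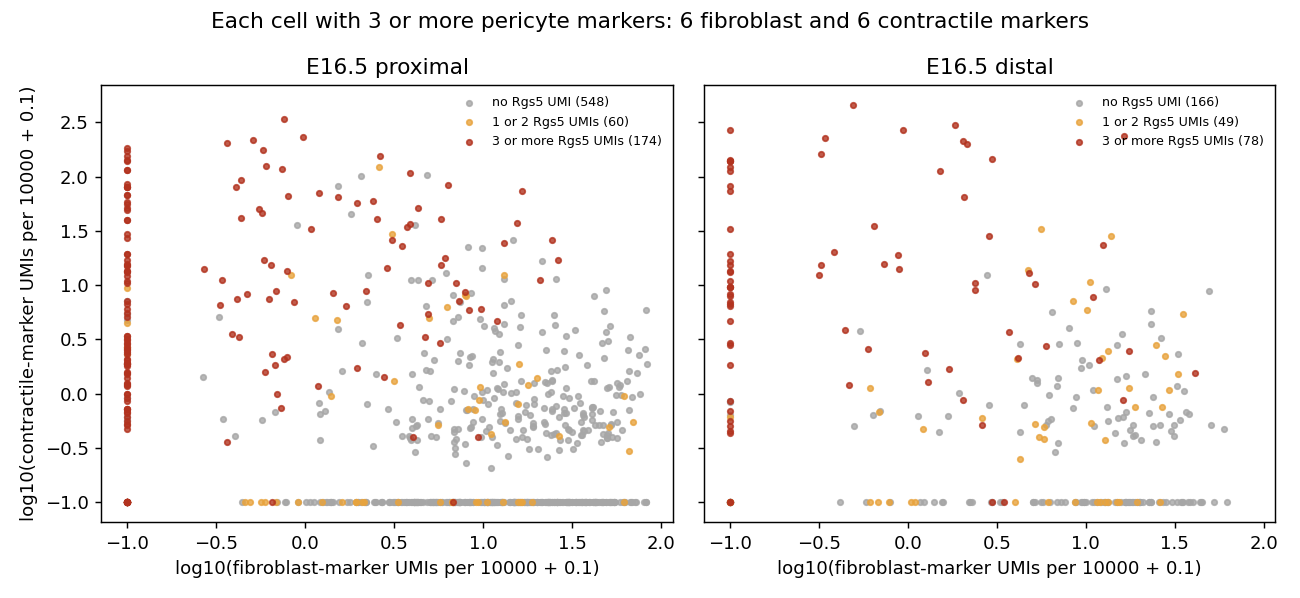
Each selected cell by its UMIs of 6 fibroblast markers (x axis) and 6 contractile markers (y axis), per 10000 UMIs, on log10 axes with 0.1 added, in the proximal (left) and distal (right) library. Cells with 3 or more *Rgs5* UMIs lie mostly at low fibroblast and spread over the whole contractile range, and cells without *Rgs5* lie mostly at high fibroblast and low contractile values.

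Of 49 genes from a list of channels, receptors and cyclic nucleotide genes, with the selection genes left out, 21 passed the minimum. In *Rgs5*+ cells 8 were called higher, beside 0.326% of all genes, with medians of 1.29 and 0.88 over the 49. They were *Adra2a*, *Avpr1a*, *Gucy1a3*, *Gucy1a2*, *Gucy1b3*, *Rgs4*, *Rgs16* and *Gja4*. *Kcnj8* was at 224 and 109 CPM in *Rgs5*+ cells, 62.5 and 43.3 CPM in *Rgs5*- cells and 7.91 and 1.87 CPM in the other cells, and *Abcc9* at 183 and 147, 52.9 and 45.4, and 6.32 and 2.76 CPM. Every *Rgs5*- cell had to carry 3 of the 5 other genes, so raised *Kcnj8* and *Abcc9* in them follow from the rule. *Adra2a*, an adrenergic receptor, was at 34.2 and 55.5 CPM in *Rgs5*+ cells and at 1.3 and 1.83 CPM in the other cells. *Ednra*, the endothelin receptor, was at 60.1 and 76.5 CPM against 15.9 and 22.5 CPM and stayed under 4-fold.

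In the Notch pathway, with the selection gene *Notch3* left out, 10 of 21 genes passed the minimum. In *Rgs5*+ cells 2 of the 21 were called higher, beside 0.326% of all genes, with medians of 0.30 and 0.14. They were the targets *Heyl* and *Nrarp*. *Heyl*, a transcriptional repressor, was at 77 and 49.1 CPM in *Rgs5*+ cells, 9.7 and 10.2 CPM in *Rgs5*- cells and 2.86 and 1.6 CPM in the other cells. *Nrarp*, a feedback inhibitor of the pathway, was at 83.7 and 60.4 CPM against 10.5 and 1.96 CPM in the other cells and 5.01 and 2.79 CPM in *Rgs5*- cells. Another target, *Hes1*, had 154 and 171 CPM in *Rgs5*+ and 187 and 203 CPM in the other cells. The ligand *Jag1* was at 73.7 and 71.6 CPM in *Rgs5*+ cells and 25.3 and 27.5 CPM in the other cells, under 4-fold. TGGGAA, the core bound by RBPJ, was found on either strand in windows of 24.1% of all genes and of 6 of the 18 Notch pathway genes with a window. *Nrarp* was not among the 6, and *Heyl*, *Hes1*, *Hey1* and *Mfng* had no window.

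No gene of the 7 on the PDGF list was called between *Rgs5*+ and other cells, and 4 passed the minimum. In cells with 5 or 6 selection genes *Pdgfrb* and *Pdgfa* were called higher and *Pdgfra* lower, beside 2.23% of 7004 genes tested that were higher and 2.04% that were lower. *Pdgfa*, a PDGF ligand, was at 175 (165 to 186) and 159 CPM (146 to 173) in *Rgs5*+ cells, 16.4 and 29.3 CPM in *Rgs5*- cells and 27.4 and 39.1 CPM in the other cells, with log2 ratios of 2.63 and 2.00, the distal one just under the threshold. *Pdgfb*, which endothelial cells are known to make, was at 5.07 and 4.57 CPM in *Rgs5*+ cells, below the 20 CPM needed. *Pdgfra*, the receptor that marks fibroblasts, was at 56.8 and 111 CPM in *Rgs5*+ cells, against 143 and 194 CPM in *Rgs5*- cells and 129 and 230.2 CPM in the other cells.

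None of 26 genes of the TGF-beta and BMP list and none of 29 vessel signals was called in *Rgs5*+ cells, near the 0.326% of all genes higher and 0.19% lower. Their medians lay between -0.10 and 0.09, and 21 and 23 passed the minimum. *Angpt1*, a ligand of the endothelial receptor TIE2, was at 19.2 and 43 CPM in *Rgs5*+ cells and 11.6 and 21.3 CPM in the other cells. *Angpt2*, another TIE2 ligand, was at 27.3 and 26.8 CPM in *Rgs5*+ cells, 14.1 and 20 CPM in *Rgs5*- cells and 3.43 and 6.35 CPM in the other cells, past 4-fold in the proximal library only.

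A few genes of the basement membrane list were also higher in *Rgs5*+ cells, and most were not called. Of 30 on the list 19 passed the minimum and 4 were called higher (medians over the 30 of 0.31 and 0.41), beside 0.326% of all genes. They were the collagen IV chain gene *Col4a1* and the integrin genes *Itga1*, *Itga6* and *Itga7*. *Col4a1* was at 1344 and 1574 CPM in *Rgs5*+ cells, 437 and 594 CPM in *Rgs5*- cells and 283 and 327 CPM in the other cells. Its partner *Col4a2* was at 630.3 and 665 CPM against 164 and 174 CPM, with log2 ratios of 1.93 in both libraries, just under 4-fold. *Itga1*, a collagen-binding integrin subunit, was at 91.2 and 134 CPM in *Rgs5*+ cells and 8.34 and 7.43 CPM in the other cells. The laminin gene *Lama2* was at 37 and 44.2 CPM against 31.4 and 43.5 CPM, and nidogen 1 (*Nid1*) at 235 and 270.1 CPM against 184 and 212 CPM.

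Of 40 transcription factors linked to mural cells, 28 passed the minimum, and the 40 had medians of 0.33 and 0.16. *Foxs1*, *Foxc2*, *Epas1*, *Nr2f1* and *Heyl* were called higher in *Rgs5*+ cells, beside 0.326% of all genes. *Epas1*, which encodes the hypoxia-inducible factor HIF-2α, was at 33.4 and 42.7 CPM in *Rgs5*+ cells, 3.23 and 1.4 CPM in *Rgs5*- cells and 3.56 and 2.26 CPM in the other cells. *Nr2f1*, an orphan nuclear receptor, was at 83.3 and 52.4 CPM against 5.51 and 2.99 CPM. *Ebf1* was at 573 and 648 CPM in *Rgs5*+ cells, 343 and 457 CPM in *Rgs5*- cells and 219 and 399.6 CPM in the other cells. *Myocd*, the coactivator of serum response factor in smooth muscle, reached 5.24 and 16.2 CPM in *Rgs5*+ cells and stayed below 1 CPM in *Rgs5*- and other cells, but did not reach the 20 CPM needed.

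All 32 fibroblast and interstitial matrix genes passed the minimum. Between *Rgs5*+ or *Rgs5*- and other cells none was called in either direction, and the medians were -0.85 and -0.55 in *Rgs5*+ cells and 0.69 and 0.34 in *Rgs5*- cells. In cells with 5 or 6 selection genes 9 of the 32 were called lower, *Dcn*, *Lum*, *Col1a1* and *Pdgfra* among them, beside 2.04% of 7004 genes tested. The 32 had medians of -1.70 and -1.79 in these cells. *Dcn* was at 884 and 1264 CPM in *Rgs5*+ cells, 2929 and 3348 CPM in *Rgs5*- cells and 2082 and 2439 CPM in the other cells. *Dpt*, the matrix protein dermatopontin, was at 56.1 and 104 CPM, 297 and 266 CPM, and 112 and 134 CPM. *Clec3b*, the plasminogen-binding protein tetranectin, was at 57.3 and 94.5 CPM, 389.6 and 327 CPM, and 174 and 177 CPM. *Rgs5*- cells thus lay above the other cells for these 3 genes, and *Rgs5*+ cells below them.

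When the higher group had to reach 50 CPM in each library, the 15 genes with the largest ratios in *Rgs5*- cells, all under 4-fold, were *Col5a3*, *Tnxb*, *Pcdh19*, *Apod*, *Tmeff2*, *Col6a6*, *Akap12*, *Ntrk2*, *Dpt*, *Igfbp6*, *Cd248*, *AW551984*, *Clec3b*, *Adamts5* and *Agtr2*. *Tnxb*, the matrix protein tenascin-X, was at 139 and 143 CPM in *Rgs5*- cells, 20.1 and 43.9 CPM in *Rgs5*+ cells and 61 and 64.9 CPM in the other cells. *Col5a3*, a collagen V chain gene, was at 198 and 230.1 CPM, 90.7 and 141 CPM, and 79 and 91.4 CPM. Some mural genes that fell short of that level had larger ratios, with log2 values of 1.53 and 1.84 for *Acta2*, 1.47 and 2.11 for *Heyl*, and 2.27 and 1.46 for *Gucy1a3*. *Cd248*, the stromal surface protein endosialin, was at 165 and 188 CPM in *Rgs5*- cells and 64.4 and 97.3 CPM in the other cells.

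The 6 fibroblast markers *Dpt*, *Pi16*, *Cd34*, *Ly6a*, *Mfap5* and *Clec3b* were all detected, at a sum of 2006 and 1481 CPM in *Rgs5*- cells, 454 and 613 CPM in *Rgs5*+ cells and 854 and 852 CPM in the other cells. *Rgs5*- cells held at least 3 of them in 445 of 548 proximal (81.2%) and 124 of 166 distal cells (74.7%). The share was 20.9% and 34.6% in *Rgs5*+ cells, 41.2% and 37.7% in the other cells, and 11.6% and 8.51% in cells with 5 or 6 selection genes. Against the 4251 proximal and 3071 distal other cells with 3 or more fibroblast markers, 1 of 6421 genes was called higher in *Rgs5*- cells (0.0156%), the selection gene *Abcc9*, and 0 lower (0%). In that pairing the 27 genes of the second mural list had medians of 0.48 and 0.71. Among all cells with 3 or more fibroblast markers, selected ones included, *Kcnj8* had a UMI in 22.7% and 5.53% and *Abcc9* in 24.3% and 11%, at median depths of 20148 and 19581 UMIs.

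Markers of further cell types were counted in the selected cells, and their part in the results was not tested. Of the 782 proximal and 293 distal selected cells, 591 and 208 had at least 3 markers of any class other than mural, fibroblasts included, as had 103 and 59 of the *Rgs5*+ cells. With all such cells left out, the selected share of filtered cells was 10.4% in place of 7.04% in the proximal library. In the distal library it was 3.67% in place of 3.47%. With all classes pooled, such markers were thus not more frequent in selected than in other cells, but single classes differed. Fibroblast markers were more frequent in selected cells, at 63.2% and 57.3% against 41.2% and 37.7%. Proximal endothelial markers were too, at 3.84% against 0.504%, while proximal chondrocyte markers were less frequent, at 15.7% against 20.6%. At least 3 of 8 endothelial markers were present in 18 of 234 proximal *Rgs5*+ cells (7.69%, interval 4.62 to 11.9), in 2.19% of *Rgs5*- cells and in 0.504% of the other cells. All 8 endothelial markers were detected, at a sum of 154, 55 and 34.5 CPM. In the distal library 0 of 127 *Rgs5*+ cells had 3 of them, their sum was 32 CPM against 34 CPM in the other cells, and *Cdh5*, *Cldn5* and *Tie1* were at 0. With those endothelial-marker cells left out, 95 in place of 96 genes were higher in *Rgs5*+ cells. With all cells that had 3 or more markers of another class left out, from both sides of the comparison, 156 genes were higher and 181 lower. No selected cell had 3 immune or 3 glial markers, and among the other cells of each library 1 had 3 immune and 4 had 3 glial markers.

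*Esam* and *Procr*, among the 15 genes with the largest ratios in *Rgs5*+ cells, are also expressed by endothelial cells. *Esam*, a junctional adhesion molecule, was at 70.9 and 52.1 CPM in *Rgs5*+ cells, 1.33 and 0.699 CPM in *Rgs5*- cells and 0.829 and 0.943 CPM in the other cells. *Procr*, the protein C receptor, was at 106 and 102 CPM against 5.15 and 3.12 CPM. The part of endothelial cells in these values was not tested. *Apold1*, *Sept4* and *Tinagl1* completed that list beside genes already named, at 70.4 and 71.3 CPM, 139.8 and 80.5 CPM, and 115 and 109 CPM in *Rgs5*+ cells, against values between 0.895 and 4.36 CPM in the other cells.

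The genes with the largest ratios in *Rgs5*+ cells included 3 chemokine genes, *Ccl2*, *Cxcl1* and *Ccl11*. *Ccl2* was at 387 and 881 CPM in *Rgs5*+ cells, 32.4 and 160.5 CPM in *Rgs5*- cells and 5.46 and 46.9 CPM in the other cells. *Cxcl1* was at 210.0 and 1066 CPM, 33.7 and 292 CPM, and 12.4 and 58.1 CPM. *Ccl11*, which attracts eosinophils, was at 139 and 145 CPM in *Rgs5*+ cells and 7.07 and 6.7 CPM in the other cells. A UMI of *Ccl2* was present in 45.3% and 48.8% of *Rgs5*+ cells and in 3.43% and 10.3% of the other cells.

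Genes of dividing cells were compared after each cell had been thinned to 3000 UMIs. At least 3 of 15 cell cycle genes were present in 33.8% of proximal *Rgs5*+ cells (interval 27.7 to 40.2), 18.8% of *Rgs5*- cells (15.6 to 22.3) and 18.6% of the other cells (17.8 to 19.3). In the distal library the shares were 21.3% (14.5 to 29.4), 11.4% (7.03 to 17.3) and 12.5% (11.8 to 13.2). *Rgs5*+ cells lay above the other cells in both libraries, and whether this exceeds the spread between embryos or libraries was not tested. Without thinning the shares were 59.4%, 53.1% and 38.8% in the proximal and 49.6%, 31.3% and 24.1% in the distal library. None of 31 cell cycle genes, 30 past the minimum, was called in *Rgs5*+ cells, and their medians were 0.58 and 0.37.

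The lineage label was present in the selected cells. Transcripts of tdTomato were found in every *Rgs5*+ cell of both libraries, and also in 99.9% of the other proximal and 99.2% of the other distal cells. They were at 2217 CPM (2179 to 2256) in proximal and 1078 CPM (1043 to 1114) in distal *Rgs5*+ cells, against 1319 and 852 CPM in the other cells. *Rgs5*- cells had 1314 and 734 CPM. *Hic1* itself was at 29.3 (25.1 to 34.1) and 19.8 CPM (15.3 to 25.3) in *Rgs5*+ cells, 35.6 and 40.5 CPM in *Rgs5*- cells and 20.8 and 27.7 CPM in the other cells. In *Rgs5*+ cells it was thus above the other cells in the proximal and below them in the distal library. None of 20 genes of the early lineage list, which holds transcripts of the young limb mesenchyme such as *Osr1*, *Scx* and *Twist2*, was called in *Rgs5*+ cells (medians of -0.35 in both libraries, with 18 past the minimum). *Osr1* was at 27.3 and 18.3 CPM in *Rgs5*+ and at 63.6 and 46.6 CPM in *Rgs5*- cells.

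Of 12 genes linked to perivascular progenitors, *Adra2a* and *Rgs16* were called higher in *Rgs5*+ cells, beside 0.326% of all genes. The 12 had a proximal median of 0.94 and a distal one at 0, and 10 passed the minimum. *Nes*, the intermediate filament nestin, was at 103 and 111 CPM in *Rgs5*+ cells, 57.3 and 39.6 CPM in *Rgs5*- cells and 32.6 and 26.2 CPM in the other cells. *Dlk1*, a non-canonical Notch ligand, was at 3090 and 2133 CPM in *Rgs5*+ cells, 4483 and 3594 CPM in *Rgs5*- cells and 3663 and 2290 CPM in the other cells.

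Distal and proximal selected cells came from 1 library each, counted with different versions of Cell Ranger, so segment and library cannot be told apart. Of 6313 genes 30 were 4-fold higher in the distal selected cells (0.475%) and 46 lower (0.729%), and between the other cells of the same libraries 27 of 6331 were higher (0.426%) and 114 lower (1.8%). Between *Rgs5*+ cells 48 of 6335 were higher (0.758%) and 49 lower (0.773%). In all selected cells the contractile gene *Myh11* was past 4-fold, at 22.1 CPM in the proximal and 95.5 CPM in the distal library. In *Rgs5*+ cells none of the second mural or contractile genes was past 4-fold between the segments, and 23 and 19 passed the minimum. That absence lies near the shares over all genes and does not show that the segments were alike. None of the 6 selection genes was past 4-fold in *Rgs5*+ cells either, but cells of both segments were chosen by these genes, so this follows in part from the rule.

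Some Hox genes, which record position along the limb, differed between the segments. Of 39 on the list 7 passed the minimum in *Rgs5*+ cells, and 3 were higher in the distal cells and 1 lower. *Hoxd13*, a gene of the autopod, was at 0.524 CPM in proximal and 44.8 CPM in distal *Rgs5*+ cells, against 1.75 and 79.3 CPM in the other cells. *Hoxa13* was at 0.175 and 23.5 CPM against 0.45 and 31.8 CPM, and *Hoxd11* at 11 and 55.8 CPM against 26.3 and 81.5 CPM. *Hoxb2* went the other way, from 34.9 to 1.52 CPM in *Rgs5*+ cells and from 15 to 2.36 CPM in the other cells. Each of these 4 genes had the same direction in *Rgs5*+ and in the other cells.

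Among the 8 genes with the largest ratios in distal over proximal selected cells, 5 encode chemokines or cytokines, *Cxcl2*, *Ccl7*, *Il6*, *Cxcl1* and *Cxcl10*, and 1 the G protein regulator *Rgs16*. *Cxcl2* was at 21 CPM in proximal and 419.5 CPM in distal *Rgs5*+ cells (log2 ratio 4.26), and at 2.39 and 11.5 CPM in the other cells (1.89). *Il6* was at 15.5 and 126 CPM in *Rgs5*+ cells (2.94) and 1.1 and 2.98 CPM in the other cells (0.92), with 28.9% of its distal UMIs in 1 *Rgs5*+ cell. *Rgs16* was at 24.3 and 138 CPM (2.46) against 2.84 and 6.63 CPM (0.99). Whether these differences between *Rgs5*+ and other cells exceed the spread between libraries was not tested. *Tnfaip3*, an inhibitor of NF-kappa-B signalling, was at 2.1 and 65.5 CPM in *Rgs5*+ cells and 2.03 and 11.9 CPM in the other cells. The remaining 2 of the 8, *Gm10076* and *Spag7*, had log2 ratios of 3.19 and 2.60 in the other cells as well, close to the 3.27 and 2.59 in selected cells.

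**Figure D5:**
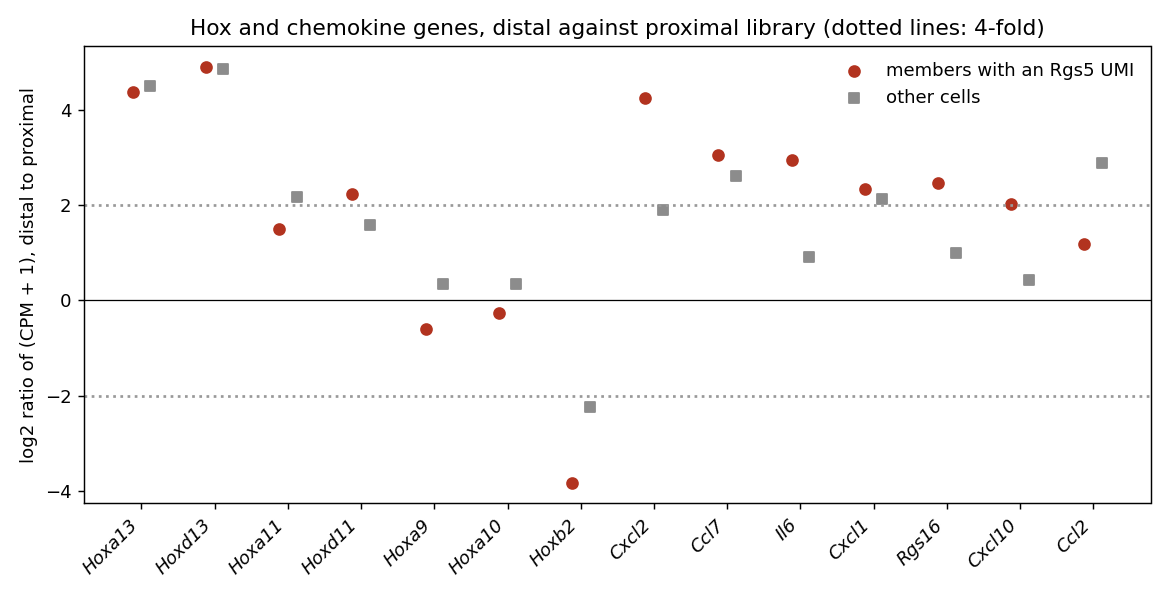
Log2 ratio of CPM + 1, distal to proximal library (y axis), of 7 Hox genes and 7 chemokine, cytokine or Rgs genes (x axis), in *Rgs5*+ selected cells (circles) and the other cells (squares), with dotted lines at 4-fold. *Hoxa13* and *Hoxd13* lie past 4-fold higher and *Hoxb2* past 4-fold lower in both groups of cells, and *Cxcl2* has 4.26 in the *Rgs5*+ and 1.89 in the other cells.

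The 8 genes with the largest ratios in proximal over distal selected cells were the epidermal genes *Calm4*, *Ly6d*, *Lor*, *Sprr1b*, *Serpinb2*, *Sprr1a*, *Asprv1* and *Perp*. *Calm4*, a calcium-binding protein of the epidermis, was at 219 and 1.58 CPM in selected and at 1192 and 53.6 CPM in the other cells. Between *Rgs5*+ cells the cartilage genes *Matn1*, *Col9a3* and *Col2a1* were also among the first 8. *Col2a1*, the main cartilage collagen, was at 845 and 37.5 CPM in *Rgs5*+ cells and 1889 and 495 CPM in the other cells. At least 3 of 6 chondrocyte markers were present in 12% of proximal and 3.15% of distal *Rgs5*+ cells, and in 20.6% and 9.82% of the other cells. With cells of other marker classes left out, 15 in place of 46 genes were lower in the distal selected cells.

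Few cells passed the rule before E16.5. In the other sorted libraries of the same genotype and treatment it took 1 of 3165 cells at E11.5, 11 of 4714 at E12.5, 13 of 6123 at E13.5 and 116 of 8381 at E14.5, and in both whole limb libraries at E11.5 it took 0 and 1. Median depth was 8992, 8683 and 6788 UMIs up to E13.5, where an earlier reagent kit had been used, and 14333 at E14.5, so these shares are not comparable with those at E16.5. Thinned to 3000 UMIs, 8 cells at E14.5 passed (0.0955%, interval 0.0412 to 0.188), 6 of them with *Rgs5*.

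At E14.5, *Rgs5* was present in 37 of the 116 selected cells. In these 37 cells *Acta2* was at 2042 CPM (1951 to 2137) and *Tagln* at 559.6 CPM, between the proximal and distal values of the E16.5 *Rgs5*+ cells. *Rgs5* was at 402 CPM (362 to 445), against 778 and 1025 CPM at E16.5, and *Heyl* at 83.2 CPM, against 77 and 49.1 CPM. *Myh11* was at 23 CPM (14.2 to 35.2), against 80 and 220.1 CPM at E16.5, *Cox4i2* at 70.1 CPM (54 to 89.5) against 192 and 300.0 CPM, and *Col4a1* at 370.1 CPM (332 to 412) against 1344 and 1574 CPM. In the other cells *Col4a1* was likewise at 80.1 CPM at E14.5 against 283 and 327 CPM at E16.5, and *Cox4i2* at 4.71 CPM against 5.65 and 22.3 CPM. *Higd1b* had no UMI in the 37 cells (interval 0 to 4.04 CPM), against 52.2 and 23.8 CPM at E16.5. Transcripts of tdTomato were at 485 CPM in them. Stage and library cannot be told apart here either.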

How the data were processed

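Single-cell suspensions of mouse forelimbs had been profiled with 10x Genomics 3′ chemistry, with version 2 reagents up to E13.5 and version 3 at E14.5 and E16.5. The deposited matrices hold raw counts of UMIs per gene and barcode, which the authors made with Cell Ranger on a modified mm10 reference. Per the file headers the proximal library was counted with version 3.0.2 and the distal one with 6.0.1. The authors' further removal of epithelial clusters was not applied here.

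Cells with at least 3000 UMIs, the authors' limit, and at most 10% mitochondrial UMIs, a limit set here, were kept. UMIs were summed over groups of cells and scaled to CPM. Genes at 20 CPM or more in a group of either library were compared by the log2 ratio of CPM + 1, and a gene was called past 4-fold (2 on the log2 scale) in both libraries, or past it between segments. Each E16.5 segment had 1 library, and no test was made. The call was run on simulated Poisson counts, with changes larger than 4-fold placed in genes at 50 CPM or more. That setting has no spread between cells and no genes near the threshold, so it does not check the counts reported here. Poisson and Clopper-Pearson intervals are at 95%. No doublet caller was run, and cells with 3 or more markers of another class were left out as an alternative. No cells were clustered, and no cell type annotation was used. Python 3.11.15, numpy 2.4.6, scipy 1.17.1, pandas 2.3.3 and matplotlib 3.10.9 were used.

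Named genes were the 15 with the highest and, of the 12 with the lowest, some examples, by the weaker ratio of both libraries, and the 8 with the largest ratio per direction between segments, all at 50 CPM or more in the higher group. Selection genes, haemoglobin, mitochondrial, ribosomal protein, sex-linked and added sequences were left out of that choice, and genes of the fixed lists were named beside them. The selection rule, the gene lists and the marker lists were chosen with earlier results of these data known, and the splits by *Rgs5* and by contractile markers after the values had been seen. *Gucy1a3* and *Gucy1b3* are the symbols in the files. Promoter windows searched were the 250 bases before each RefSeq start, and the printed *Myl9* stretch was cut where a GENCODE M21 transcript begins.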

Additional observations from a re-analysis of the deposited data

How the results depend on the processing

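The alternatives below are compared with 27 genes higher and 44 lower in all selected cells, 30 higher and 46 lower in distal selected cells, 96 higher and 53 lower in *Rgs5*+ cells, and shares of 7.04% and 3.47%. A minimum of 50 CPM left 17 higher, 18 higher in distal and 27 lower in distal. A pseudocount of 5 left 18 lower and 15 higher in distal, and no filter on low values gave 123 lower in distal. Between 10000 and 30000 UMIs, 23 were lower and 12 lower in distal. Against other cells with 0 selection genes 17 were lower, and without epithelial and chondrocyte cells 5. Without cells of another class 115 were higher and 108 lower, 15 lower in distal, 156 higher and 181 lower in *Rgs5*+ cells, and the proximal share was 10.4%. At least 4 genes gave 101 higher and shares of 2.3% and 1.04%, at least 2 gave 20.9% and 18.6%, and thinning gave 0.891% and 0.497%. Choosing 3 of 5 genes without *Rgs5* gave 6.47% and 2.81%, and without *Notch3* 4.02% and 1.61%. Of subsets chosen after seeing the data, cells with *Rgs5* gave 96 higher and 48 higher in distal, cells without *Rgs5* gave 2 higher, cells with 3 or more *Rgs5* UMIs gave 146 higher and 101 lower, and cells with 5 or 6 genes gave 156 higher and 143 lower. Of the other settings for these counts and shares, each left the value within 1.5 times or within its interval. The cause of these changes was not tested, beyond the cells each setting leaves out. No paired test was run, since selected and other cells could be paired in only 2 libraries and each segment had 1 library. Selected and other cells were compared within each library, and in the proximal or distal library alone 34 or 45 genes were higher and 89 or 61 lower, and in *Rgs5*+ cells 146 or 119 higher and 122 or 78 lower. Depth limits most the low genes, where 1 UMI was about 0.175 CPM in proximal and 0.305 CPM in distal *Rgs5*+ cells.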

Other observations

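Cells with an *Rgs5* UMI also lay below the threshold of the rule. Among cells with exactly 2 of the 6 genes, 95 proximal and 169 distal cells had *Rgs5* as 1 of the pair. *Acta2* was at 779 CPM (743 to 816) in the proximal and 7.45 CPM (4.91 to 10.8) in the distal ones. *Heyl* was at 15.4 and 1.66 CPM and *Foxs1* at 7.03 and 0 CPM in them, below the 77 and 49.1 CPM of *Heyl* and the 36 and 39.6 CPM of *Foxs1* in *Rgs5*+ selected cells. In the distal library, cells with 3 or more tenocyte markers, selected ones included, had a UMI of *Rgs5* in 7.95% (interval 6.56 to 9.51), against 2.66% in the proximal library, at median depths of 19247 and 17846.5 UMIs. *Scx*, a transcription factor of tendon, was at 173 CPM in distal selected cells with exactly 3 genes, *Rgs5* among them, and at 0 CPM in distal cells with 5 or 6 genes.

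Of 20 genes from a list of hypoxia genes and mitochondrial paralogues, with the selection gene *Higd1b* left out, 14 passed the minimum. *Cox4i2* and *Epas1* were higher in *Rgs5*+ cells, beside 0.326% of all genes, with medians of -0.14 and 0.16 over the 20. *Cox4i1*, the widely expressed paralogue of *Cox4i2*, was at 1136 and 986 CPM in *Rgs5*+ cells and 896 and 843 CPM in the other cells. None of 27 other limb position genes, 15 past the minimum, was called in *Rgs5*+ cells, with medians of -0.34 and -0.54, and none of 39 Hox genes, 7 past the minimum, with medians of 0.07 and -0.16.

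Single cells set some values. *Nts*, a neuropeptide gene, was at 91.2 CPM in distal *Rgs5*+ cells, all of it from 1 cell. The summed erythroid markers were at 2029 CPM in proximal *Rgs5*+ cells against 48.3 CPM in the other cells, and 3 of the 234 cells had 3 or more of these markers.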
